A study of Homo sapiens with 15 samples.

Results

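The genes described here are 10 that are commonly read as targets of transforming growth factor beta (TGF-beta) and its effector SMAD3, PMEPA1, TGFBI, SNAI1, SNAI2, TWIST1, ZEB1, ZEB2, CDH2, BHLHE40 and LTBP4. They were taken by symbol, and all 10 were among the 37787 gene symbols of the gene count table. RNA-seq was performed on HGrC1, an immortalized human granulosa cell line that is not luteinized and whose own FOXL2 alleles are normal. Cells of the Vectors condition received empty plasmids. The other conditions all received SMAD3, together with wild-type FOXL2 (FOXL2WT), FOXL2 carrying the C134W substitution of adult granulosa cell tumours (FOXL2C134W), or either of these with FOXO1-3A, a FOXO1 mutant that stays in the nucleus and remains active (FOXL2WT + FOXO1 and FOXL2C134W + FOXO1). Plasmids were left on the cells for 4 h by lipofection and the cells were then kept for 24 h without serum, so every condition is a short, transient overexpression in 1 line. No condition received SMAD3 without FOXL2, so the 2 plasmids cannot be told apart in a comparison with Vectors, and no condition was labelled as given TGF-beta itself. Each of the 5 conditions had 3 libraries, A, B and C, with 14962245 to 25339094 counts per library. Nothing in the labels says whether the 3 came from separate cultures, so the p-values measure the spread between these libraries, which may be technical.

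TGF-beta ligands bind a pair of receptor kinases that phosphorylate SMAD2 and SMAD3, which join SMAD4 and act on genes in the nucleus. Among the genes switched on are brakes on the pathway itself, components of the extracellular matrix, and transcription factors of the Snail, Twist and ZEB families, which repress E-cadherin and take epithelial cells towards a mesenchymal state. FOXL2 is the forkhead factor that maintains granulosa cell identity, and its C134W form has been described as binding together with SMAD3. In granulosa cells the same SMADs carry signals of activin and of oocyte-derived growth factors.

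FOXL2 was counted at a mean of 8.73 CPM (counts relative to the library total, scaled by the trimmed mean of M values) in Vectors, 561 CPM in FOXL2WT, 147 CPM in FOXL2C134W, 384 CPM in FOXL2WT + FOXO1 and 152 CPM in FOXL2C134W + FOXO1. Mean SMAD3 was 249 CPM in Vectors, 2768 CPM in FOXL2WT, 843 CPM in FOXL2C134W, 969 CPM in FOXL2WT + FOXO1 and 392 CPM in FOXL2C134W + FOXO1. FOXO1 was at 39.1 to 132 CPM in the libraries given FOXO1-3A and at 11.6 to 13.8 CPM elsewhere, so the transfected genes followed the labels in all 15 libraries. The RNA of SMAD3 and FOXL2 was thus not at equal levels in the conditions compared. Counts do not separate plasmid from chromosomal transcripts or more transfected cells from more RNA in each. For protein, the paper reports balanced FOXL2WT, FOXL2C134W and FOXO1 on an immunoblot, and does not name SMAD3 there. Of 14 granulosa markers, 9 reached 1 CPM in at least 1 library, with GATA4 at 129 to 154 CPM and WT1 at 38.8 to 47.7 CPM, while FSHR and LHCGR had 0 counts in all 15 libraries and CYP19A1 and INHA at most 4 counts in any library. Replicates differed by more than sampling noise in every condition (chi-square per degree of freedom 2.21 to 8.84), and library A stood apart from B and C in FOXL2C134W (7.81 and 8.84, against 2.60 between B and C) and in FOXL2WT + FOXO1 (6.64 and 6.65, against 2.82), while in FOXL2C134W + FOXO1 the pairs gave 4.19 to 7.23. Without FOXL2C134W A the 4 calls of target genes in this condition, PMEPA1 and BHLHE40 against Vectors and LTBP4 and ZEB1 against FOXL2WT, all held (highest adjusted p = 0.021, LTBP4, edgeR). The call of BHLHE40 held in FOXL2WT + FOXO1 without its library A (adjusted p = 0.0024) and in FOXL2C134W + FOXO1 without its library B (adjusted p = 0.0018).

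The starts of 2 of the target genes are shown because these genes, BHLHE40 and PMEPA1, were the ones that differed from Vectors. The 250 bases before the transcription start, from RefSeq on GRCh38.p14, are given 5′ to 3′ on the strand of the gene, with the SMAD box CAGAC, or GTCTG where it lies on the other strand, in capitals. The BHLHE40 start (plus strand, chr3:4979187-4979436) lies directly before the gene's main transcript. The PMEPA1 start (minus strand, chr20:57710578-57710827), 1 of 4 in RefSeq, is 12 bases from that of PMEPA1-203. This is not the gene's main transcript. It held 17.8% of the gene's TPM (abundance per transcript length), against 48.8% for the most abundant one. Whether the PMEPA1 window lies before that most abundant transcript was not tested.
BHLHE40: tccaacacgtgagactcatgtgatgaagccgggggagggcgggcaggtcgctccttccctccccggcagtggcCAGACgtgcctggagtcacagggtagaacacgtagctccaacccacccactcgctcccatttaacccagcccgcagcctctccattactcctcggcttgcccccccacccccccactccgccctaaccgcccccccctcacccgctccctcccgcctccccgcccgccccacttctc
PMEPA1: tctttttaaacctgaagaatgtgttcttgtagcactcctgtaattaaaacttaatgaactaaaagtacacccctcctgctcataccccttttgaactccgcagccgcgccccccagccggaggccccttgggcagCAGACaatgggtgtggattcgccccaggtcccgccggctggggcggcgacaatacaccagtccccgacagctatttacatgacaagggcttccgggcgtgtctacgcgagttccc
Each holds 1 SMAD box, at position -177 for BHLHE40 and at -115 for PMEPA1, counted back from the start. A SMAD box is a short motif, and 38.0% of all 35116 such 250-base windows hold at least 1. In BHLHE40, 2 further boxes lie in the 50 bases after the start, and 2.86% of all 300-base windows hold 3 or more. Of the 7 target genes searched, 4 held a SMAD box in the 250 bases, 0 held the forkhead motif TGTTTAC (2.98% of all windows, both strands) and 1, ZEB1, held the E-box CACCTG (17.5% of all windows). None of the SMAD boxes overlapped either other motif. Some of these windows do not lie directly before the transcript in use. The RefSeq start for LTBP4 is 4069 bases from that of its most abundant transcript, and the one for ZEB2 2294 bases. All 250 bases of the LTBP4, ZEB1 and ZEB2 windows lie in annotated exons. The SMAD box of LTBP4 and the E-box of ZEB1 are therefore not shown to lie in a promoter.

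The target genes spanned a wide range of levels in HGrC1. In TPM, the abundance unit that accounts for transcript length, TGFBI stood at a mean of 1010 ± 54.4 TPM (SD, n = 15 libraries), CDH2 at 229 ± 13.2 TPM and BHLHE40 at 42.7 ± 3.93 TPM. LTBP4 followed at 23.5 ± 2.18 TPM, PMEPA1 at 21.2 ± 4.69 TPM, SNAI2 at 13.5 ± 1.13 TPM, ZEB2 at 12.7 ± 1.09 TPM, ZEB1 at 12.5 ± 2.24 TPM and SNAI1 at 8.83 ± 0.691 TPM. The top 3 did not overlap any other target gene in any library, whereas each neighbouring pair from LTBP4 down to ZEB1 overlapped across libraries and some changed places between conditions. In FOXL2C134W, PMEPA1 (26.8 ± 5.03 TPM, n = 3) had a higher mean than LTBP4 (24.3 ± 0.196 TPM), and ZEB1 (14.3 ± 3.41 TPM) a higher mean than SNAI2 and ZEB2 (13.5 and 13.2 TPM). TWIST1 (chr7:19020991-19117636, minus strand, in GENCODE 44 on GRCh38), the bHLH factor of the Twist family, was close to absent. It had 0 counts in 4 libraries and 1 to 5 counts in the other 11, 26 counts in all, and a count of 0 allows up to 3 counts, or 0.119 to 0.202 CPM over the libraries. TWIST1 was removed by the filter on low counts, so 9 of the 10 target genes were tested.

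**Figure D1:**
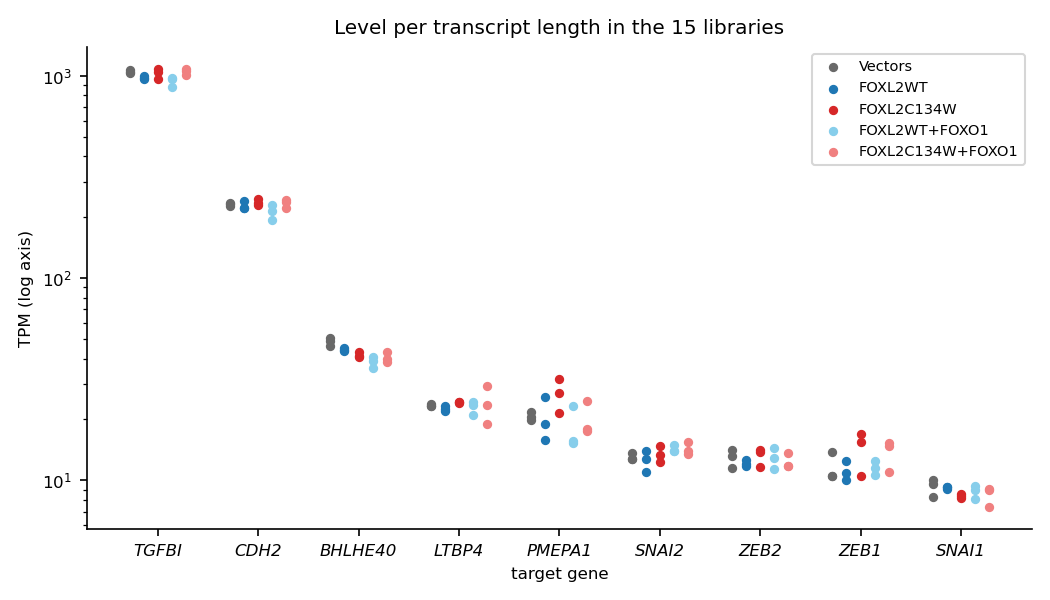
TPM (log axis) of the 9 tested target genes in each of the 15 libraries, 1 point per library, coloured by condition and ordered by mean. TGFBI (886 to 1082 TPM), CDH2 (194 to 245 TPM) and BHLHE40 (36.1 to 50.3 TPM) stand clear of the rest, and TWIST1, at 0 in 4 libraries, is not drawn.

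BHLHE40 (chr3:4979437-4985323, plus strand, in GENCODE 44 on GRCh38, as for the genes that follow) was lower in 3 of the 4 SMAD3-transfected conditions than in Vectors, and each of these calls held under all 24 alternatives tried. It encodes a bHLH repressor that acts in the circadian clock and in hypoxia and that is induced by TGF-beta in several cell types. The Vectors libraries held 122, 116 and 123 CPM and those of FOXL2WT 110, 107 and 109 CPM. In FOXL2C134W the values were 101, 104 and 97.4 CPM, in FOXL2WT + FOXO1 96.5, 96.4 and 99.8 CPM, and in FOXL2C134W + FOXO1 99.4, 93.3 and 103 CPM. Every transfected library was below every Vectors library, and FOXL2WT lay between Vectors and the other 3 conditions without overlapping any of them. The log2 fold change against Vectors was -0.25 ± 0.042 (SE) in FOXL2C134W (edgeR quasi-likelihood test, Benjamini-Hochberg adjusted p = 0.00053), -0.30 ± 0.043 in FOXL2WT + FOXO1 (adjusted p = 0.00049) and -0.29 ± 0.043 in FOXL2C134W + FOXO1 (adjusted p = 0.00026). BHLHE40 thus fell by 16.1% in the first of these and fell by 18.7% in the second. In FOXL2WT it was -0.15 ± 0.043, which missed the threshold (adjusted p = 0.052). The 4 comparisons share the same Vectors libraries and are not independent of each other.

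Among the transfected conditions, mean BHLHE40 did not run in the order of mean SMAD3. The FOXL2 form and FOXO1-3A differed between these conditions as well, and the part of SMAD3 was not tested. FOXL2C134W + FOXO1, with a mean of 392 CPM of SMAD3, and FOXL2WT + FOXO1, with 969 CPM, had mean BHLHE40 of 98.4 ± 4.73 and 97.6 ± 1.97 CPM (SD, n = 3), while FOXL2WT, with 2768 CPM of SMAD3, had 109 ± 1.29 CPM. Between the transfected conditions BHLHE40 was not called. It was -0.11 in FOXL2C134W against FOXL2WT (95% interval -0.20 to -0.018, adjusted p = 0.12) and -0.15 in FOXL2WT + FOXO1 against FOXL2WT (-0.24 to -0.062, adjusted p = 0.27), with replicates that did not overlap in either comparison. A single transcript, BHLHE40-201, carried 98.5% of the gene's TPM, so the value hardly depended on how reads were divided between isoforms. The antisense gene BHLHE40-AS1 shares 451 exonic bases with it and had a mean of 0.819 CPM.

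PMEPA1 (chr20:57648392-57711536, minus strand), which encodes a membrane protein that holds back TGF-beta signalling by binding receptor-activated SMADs, was higher in FOXL2C134W than in Vectors. It was at 25.4, 25.0 and 26.1 CPM in Vectors, 27.3, 26.0 and 29.0 CPM in FOXL2WT, 32.8, 33.5 and 29.5 CPM in FOXL2C134W, 29.1, 27.1 and 26.9 CPM in FOXL2WT + FOXO1, and 26.0, 30.6 and 27.9 CPM in FOXL2C134W + FOXO1. The 3 FOXL2C134W libraries were above all libraries of Vectors, FOXL2WT and FOXL2WT + FOXO1, and overlapped those of FOXL2C134W + FOXO1. The rise over Vectors was 1.25-fold (log2 0.33 ± 0.069 SE, adjusted p = 0.0034). Against FOXL2WT it was 1.16-fold (log2 0.22, 95% interval 0.071 to 0.36) and just missed the threshold (adjusted p = 0.051). FOXL2C134W + FOXO1 stood at -0.18 against FOXL2C134W (95% interval -0.32 to -0.038, adjusted p = 0.28). With either wild-type condition against Vectors the estimates were 0.11 and 0.12 (adjusted p = 0.41 and 0.43).

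Isoform estimates of PMEPA1 were unsteady. PMEPA1-208, a processed transcript of 361 bases, took 32.2 ± 4.41% of the gene's TPM in FOXL2C134W, 26.0 ± 8.14% in Vectors and 8.39 ± 14.5% in FOXL2C134W + FOXO1 (SD, n = 3), and the gene's TPM ran from 15.4 to 31.7 over all libraries. When these estimates set the gene's length in the model (DESeq2 with transcript length offsets), the difference from Vectors was 0.35 and no longer called (adjusted p = 0.43). NKILA, on the opposite strand, shares 343 exonic bases with PMEPA1 and had a mean of 6.26 CPM. The library kit keeps strand, and whether the counting used it is not stated in the sources used here.

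LTBP4 (chr19:40592883-40629818, plus strand), a matrix protein that tethers latent TGF-beta and takes part in elastic fibre assembly, was higher in FOXL2C134W than in FOXL2WT. Its values were 44.8, 42.2 and 43.1 CPM in FOXL2WT and 53.8, 49.9 and 55.2 CPM in FOXL2C134W, with no overlap. Vectors held 49.1, 45.3 and 45.7 CPM, FOXL2WT + FOXO1 50.3, 44.5 and 43.5 CPM, and FOXL2C134W + FOXO1 40.6, 48.5 and 40.9 CPM. All 3 FOXL2C134W libraries lay above those of Vectors and of FOXL2C134W + FOXO1, and the latter 2 conditions overlapped each other. The difference between FOXL2C134W and FOXL2WT was 1.22-fold (log2 0.29 ± 0.071 SE, adjusted p = 0.013). Against Vectors FOXL2C134W was at 0.18 (95% interval 0.037 to 0.33, adjusted p = 0.087). LTBP4 lost its call without FOXL2WT B (adjusted p = 0.057) and without FOXL2C134W C (adjusted p = 0.063).

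The estimate for FOXO1-3A on LTBP4 was -0.29 ± 0.070 in FOXL2C134W cells (adjusted p = 0.059) and 0.083 ± 0.072 in FOXL2WT cells (adjusted p = 0.77). Their difference, the interaction, was -0.37 ± 0.10 (adjusted p = 0.075), so neither it nor the separate estimates passed. FOXL2C134W + FOXO1 B, at 48.5 CPM, stood apart from the other 2 libraries of its condition, and without it the adjusted p was 0.0076 for FOXL2C134W + FOXO1 against FOXL2C134W and 0.0099 for the interaction. Leaving out any other single library gave adjusted p of 0.035 to 0.36 and 0.072 to 0.23. Reads of LTBP4 were spread over many isoforms, of which the most abundant, LTBP4-203, took 18.9% of TPM. With transcript length offsets the difference between FOXL2C134W and FOXL2WT was 0.075 in place of 0.29 (adjusted p = 0.82), that between FOXL2C134W + FOXO1 and FOXL2C134W was -0.0041 in place of -0.29 (adjusted p = 0.9996), and the interaction was -0.052 in place of -0.37 (adjusted p = 0.98). On the TPM scale the means were 24.3 ± 0.196 in FOXL2C134W, 22.6 ± 0.676 in FOXL2WT and 24.0 ± 5.16 in FOXL2C134W + FOXO1 (SD, n = 3).

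The genes whose profile over the 15 libraries was most like that of LTBP4 on the log2 CPM scale, among 9423 genes of at least 10 CPM on average, were TMEM184B and PITPNM1 (Pearson r = 0.92 for both) and SGSM2 (r = 0.91). LTBP4 and these genes have GC-rich transcripts, with 65.5% GC in LTBP4 and 59.5% to 64.6% in the other 3. Genes called higher in FOXL2C134W than in FOXL2WT had a median GC content of 52.5% and a median transcript length of 3994 bases, against 49.1% and 2110 bases for all genes tested. With an offset for GC content LTBP4 stayed at 0.29 (adjusted p = 0.0035), and with one for gene length at 0.27 (adjusted p = 0.014).

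**Figure D2:**
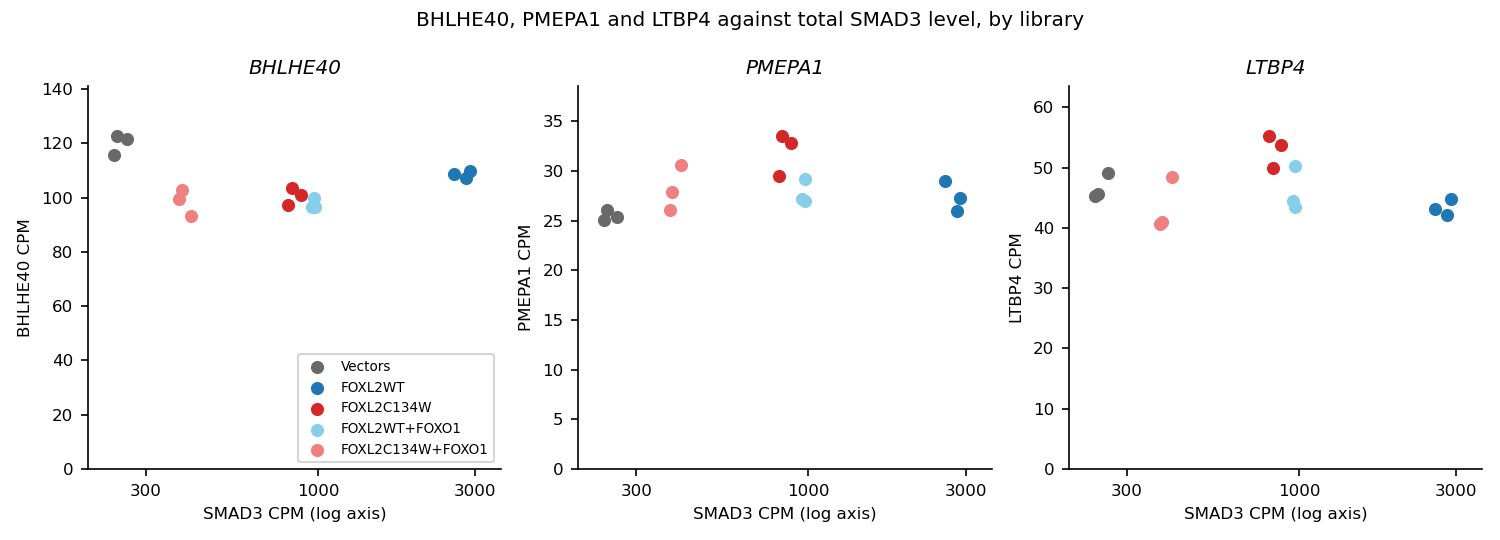
CPM of BHLHE40, PMEPA1 and LTBP4 (vertical axes) against the SMAD3 CPM of the same library (log axis), 1 point per library and coloured by condition. BHLHE40 is highest in Vectors, where SMAD3 is lowest, and PMEPA1 and LTBP4 are highest in FOXL2C134W, at an intermediate SMAD3 level of 843 CPM.

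TGFBI (chr5:136028988-136063818, plus strand), a secreted matrix protein named for its induction by TGF-beta, was abundant and was not called in any comparison. Vectors libraries held 1957, 1972 and 1996 CPM, FOXL2WT 1900, 1882 and 1912 CPM, and FOXL2C134W 2133, 1918 and 1803 CPM. FOXL2WT + FOXO1 held 1845, 1822 and 1887 CPM and FOXL2C134W + FOXO1 2037, 1966 and 1953 CPM. The spread within FOXL2C134W covered the values of all other libraries. FOXL2WT lay below Vectors without overlap, at -0.057 (95% interval -0.15 to 0.036, adjusted p = 0.50). Over the 8 pairwise comparisons the log2 fold changes ran from -0.093 to 0.10, and the outermost bounds of their 95% intervals were 0.879-fold and 1.14-fold.

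Of the factors that drive the mesenchymal transition, ZEB1 alone had a call. ZEB1 (chr10:31318495-31529814, plus strand), a zinc finger repressor of E-cadherin, was at 42.0, 39.1 and 43.2 CPM in FOXL2WT and 44.7, 51.0 and 51.8 CPM in FOXL2C134W. The lowest FOXL2C134W library was just above the highest of FOXL2WT. The difference was 1.18-fold (log2 0.24 ± 0.076 SE, adjusted p = 0.045), and it lost its call without any of 9 of the 15 libraries, including all 3 of FOXL2WT and FOXL2C134W B and C (highest adjusted p = 0.18, without FOXL2C134W C). ZEB1 has long transcripts (a mean of 4520 bases), and with an offset for gene length the value was 0.15 (adjusted p = 0.12). The call was also lost with DESeq2 and transcript length offsets (adjusted p = 0.29). Vectors held 42.7, 44.4 and 44.1 CPM, FOXL2WT + FOXO1 39.4, 48.0 and 46.0 CPM, and FOXL2C134W + FOXO1 47.1, 46.7 and 53.8 CPM. FOXL2C134W and FOXL2C134W + FOXO1 were each above Vectors without overlap, at 0.17 in both (adjusted p = 0.15 and 0.17).

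ZEB2 (chr2:144364364-144521057, minus strand), the other member of the ZEB family, was at 57.6, 51.0 and 52.1 CPM in Vectors, 51.4, 46.0 and 48.7 CPM in FOXL2WT and 48.2, 54.1 and 54.8 CPM in FOXL2C134W. The 3 conditions overlapped, and all 8 pairwise estimates for ZEB2 lay between -0.14 and 0.10 (smallest adjusted p = 0.22). SNAI1 (chr20:49982980-49988886, plus strand), the Snail repressor, which can act together with SMAD3 on junction genes, was at 11.7, 10.4 and 12.6 CPM in Vectors, 11.8, 11.4 and 11.6 CPM in FOXL2WT and 10.5, 9.86 and 10.4 CPM in FOXL2C134W. The FOXL2C134W libraries were below those of FOXL2WT without overlap, by a log2 estimate of -0.18 (95% interval -0.37 to 0.012, adjusted p = 0.23). SNAI2 (chr8:48917598-48921740, minus strand), or Slug, ran from 17.9 to 21.1 CPM over all 15 libraries, and its largest pairwise estimate was 0.11 (smallest adjusted p = 0.45). SNAI1 rested on 162 to 315 counts per library and SNAI2 on 278 to 480, and at this depth changes within 0.776-fold to 1.17-fold for SNAI1 and 0.861-fold to 1.19-fold for SNAI2 were not excluded by the outermost interval bounds.

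CDH2 (chr18:27932879-28177946, minus strand), N-cadherin, the adhesion molecule that granulosa cells carry in place of E-cadherin and that mesenchymal cells gain, was the most even of the target genes in CPM. All 15 libraries held 654 to 698 CPM, and the condition means were 670 to 679 CPM. The 8 pairwise log2 fold changes were between -0.012 and 0.014, with all 95% interval bounds between 0.945-fold and 1.06-fold and a smallest adjusted p of 0.89. In TPM it was less even, at 194 to 245 TPM over the libraries, with the lowest condition mean in FOXL2WT + FOXO1 (212 ± 17.5 TPM, SD). Under the alternatives its largest absolute log2 fold change reached 0.115, without a call. E-cadherin, CDH1, was at 0.0852 to 0.523 CPM in all 15 libraries, Vectors included.

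**Figure D3:**
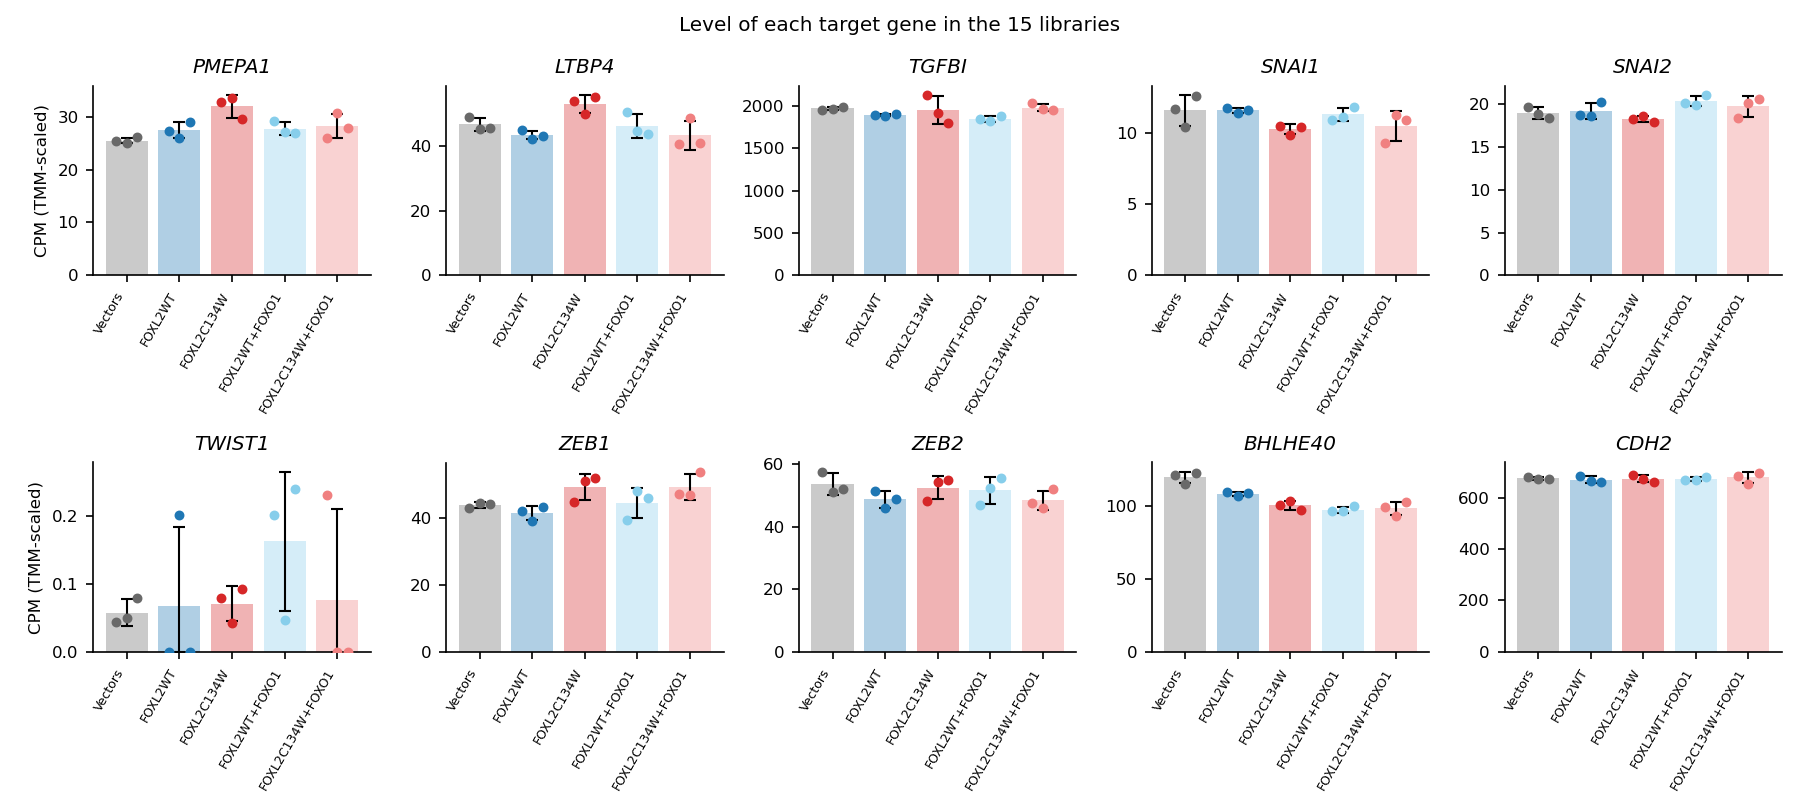
Scaled CPM of each of the 10 target genes by condition. Bars are means, error bars are the SD of 3 libraries (stopped at 0 for TWIST1) and points are libraries A, B and C from left to right. BHLHE40 stands highest in Vectors, CDH2 is level at 654 to 698 CPM, and TWIST1 does not pass 0.241 CPM.

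Across the 9 target genes tested, few comparisons gave a call, and their number is set here beside the share of all 13868 genes tested that was called. Against Vectors, FOXL2WT had 0 of the 9 called (1 at an unadjusted p under 0.05, and 1 by DESeq2), where 2.46% of all genes were higher and 3.61% lower. FOXL2C134W had PMEPA1 higher and BHLHE40 lower, against 7.48% and 7.24% of all genes. FOXL2WT + FOXO1 had 1 lower, BHLHE40, against 1.41% of all genes higher and 2.37% lower. FOXL2C134W + FOXO1 also had BHLHE40 lower, against 4.17% higher and 5.16% lower. In FOXL2C134W against FOXL2WT, 2 were higher, LTBP4 and ZEB1, and 0 lower, where 7.13% of all genes were higher and 4.12% lower. The median log2 fold change of the 9 was -0.017 in FOXL2C134W against Vectors and 0.040 against FOXL2WT, beside 0.0043 and -0.012 for all genes.

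The summed markers of some other cell types differed between Vectors and the transfected conditions. Fibroblast markers summed to 1775 to 1867 CPM in Vectors and to 1274 to 1566 CPM in the transfected libraries, of which COL1A1 made up most, with COL1A2 at no more than 1.44 CPM. Between FOXL2C134W (1552 to 1566 CPM) and FOXL2WT (1274 to 1448 CPM) this sum did not overlap either. There COL1A1 was higher (log2 0.23), while COL3A1 (-0.095), COL1A2 (-0.28) and THY1 (-0.017) had estimates below 0 and were not called. Epithelium markers summed to 1560 to 1767 CPM in Vectors and to 1839 to 2353 CPM in the transfected libraries, most of it KRT7, with CDH1 at no more than 0.523 CPM. Other genes of this list went the other way. CLDN4 was lower than in Vectors in FOXL2WT (log2 -0.47), FOXL2C134W (-0.76), FOXL2WT + FOXO1 (-0.35) and FOXL2C134W + FOXO1 (-0.56). KRT19 was lower in FOXL2C134W (-0.17), and EPCAM and CLDN3 were not called there. Leukocyte markers summed to 103 to 117 CPM in Vectors and to 88.8 to 97.8 CPM in the transfected libraries, nearly all of it CD68, with PTPRC at no more than 0.247 CPM. Endothelium markers were at 6.28 to 7.15 CPM in Vectors and 4.51 to 6.06 CPM in the 3 conditions other than FOXL2WT. Oocyte markers overlapped between Vectors (6.67 to 7.40 CPM) and FOXL2C134W (5.81 to 7.98 CPM). They were above Vectors without overlap in FOXL2WT (7.86 to 9.13 CPM) and FOXL2WT + FOXO1 (7.75 to 8.68 CPM). Markers of luteinized granulosa or theca cells also overlapped between Vectors (3.76 to 6.02 CPM) and FOXL2C134W (3.84 to 4.29 CPM). Those of FOXL2WT lay below both (3.19 to 3.55 CPM). Granulosa markers summed to 272 to 283 CPM in FOXL2WT, below Vectors (285 to 295 CPM), and overlapped Vectors in the other conditions. The part of these sums in the calls of BHLHE40 and PMEPA1 against Vectors, and of ZEB1 and LTBP4 against FOXL2WT, was not tested.

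With FOXO1-3A in both arms, 0 of the 9 were called between FOXL2C134W and FOXL2WT (1 at an unadjusted p under 0.05, 0 by DESeq2), where 0.0361% of all genes were higher and 0.108% lower. The estimates for LTBP4 and ZEB1 there were -0.085 (95% interval -0.24 to 0.065) and 0.14 (-0.017 to 0.30). Adding FOXO1-3A to FOXL2WT gave 0 calls among the 9 (1 at an unadjusted p under 0.05, 0 by DESeq2), beside 0.0144% of all genes higher and 0.0361% lower. Adding it to FOXL2C134W gave 0 calls (2 at an unadjusted p under 0.05, LTBP4 and PMEPA1, and 1 by DESeq2), beside 0.00721% higher and 0.707% lower. The interaction gave 0 calls (1 at an unadjusted p under 0.05 and 1 by DESeq2, LTBP4 in both), beside 0.137% higher and 1.25% lower.

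**Figure D4:**
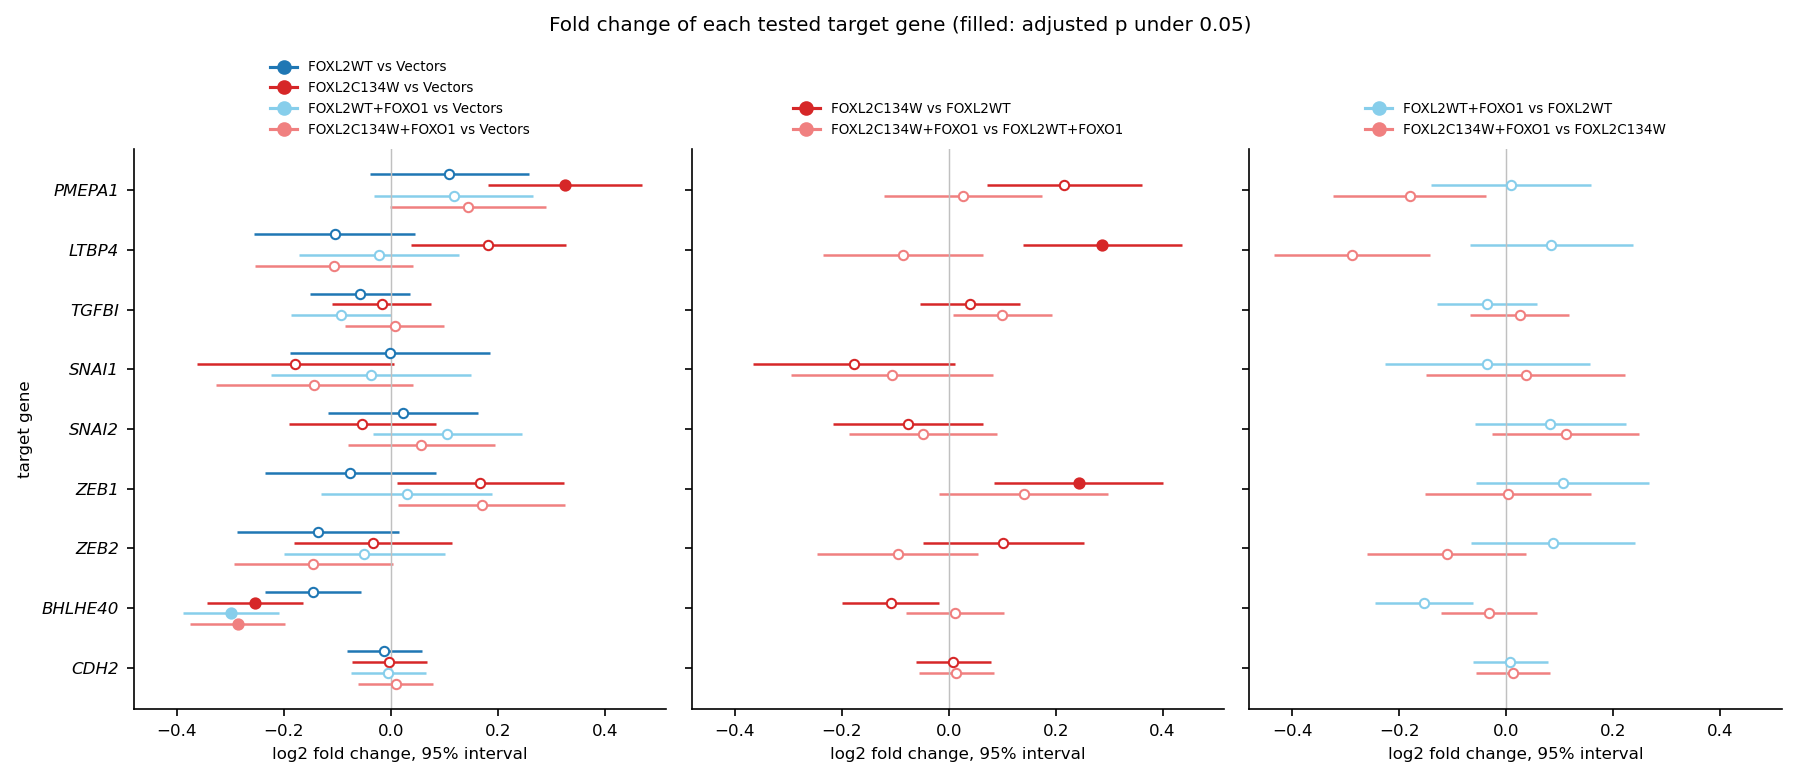
Log2 fold changes of the 9 tested target genes with 95% intervals, against Vectors (left), between FOXL2C134W and FOXL2WT (middle) and with against without FOXO1-3A (right). Filled points passed an adjusted p of 0.05, which held for BHLHE40 in 3 comparisons, PMEPA1 in 1, LTBP4 in 1 and ZEB1 in 1, and no estimate exceeded 0.33 in size.

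A wider list of 49 other TGF-beta and SMAD3 targets gave the setting for these genes, and 46 of it were tested. In FOXL2C134W against Vectors, 10 were higher and 11 lower, where 7.48% of all genes were higher and 7.24% lower, and the list's median was 0.015. ANGPTL4, an inhibitor of lipoprotein lipase, was higher (log2 0.52, 11.0 to 15.8 CPM from Vectors to FOXL2C134W), as was the growth factor gene PDGFB (0.44). BAMBI, a pseudoreceptor that dampens TGF-beta signalling, was lower (-0.53, 78.1 to 54.0 CPM), as was PTHLH, the parathyroid hormone-related peptide (-0.50). In FOXL2WT against Vectors 8 were higher and 9 lower, beside 2.46% and 3.61% of all genes. The counts were 7 and 9 for FOXL2WT + FOXO1, beside 1.41% and 2.37% of all genes. For FOXL2C134W + FOXO1 they were 8 and 12, beside 4.17% and 5.16%. Neither the list nor the target genes thus moved in a single direction with SMAD3 and FOXL2 raised.

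Between FOXL2C134W and FOXL2WT, 10 of the 46 were higher and 7 lower, beside 7.13% and 4.12% of all genes, with a median of -0.029. COL5A1, a fibrillar collagen chain, was higher by 0.56 ± 0.066 (adjusted p = 3.8e-05), and SKI, a co-repressor of SMADs, by 0.36 ± 0.057 (adjusted p = 0.00050). PTHLH (-0.54) and JUNB, a subunit of AP-1 (-0.42), were lower. Against Vectors, COL5A1 was lower in FOXL2WT (-0.42, edgeR adjusted p = 0.00084) and not called in FOXL2C134W (0.14, adjusted p = 0.16). SKI was instead higher than Vectors in FOXL2C134W (0.34, edgeR adjusted p = 0.00047) and not called in FOXL2WT (-0.023, adjusted p = 0.87). Of 4 further targets, all named after their values were seen, 2 were called and 2 were not. CCN2, a connective tissue growth factor, was higher in FOXL2C134W than in Vectors by 0.40 (adjusted p = 3.5e-05), and its values in all transfected libraries (1156 to 1327 CPM) lay above those in Vectors (864 to 971 CPM). In the same comparison THBS1, which encodes thrombospondin, an activator of latent TGF-beta, was higher by 0.38 (adjusted p = 4.0e-06). Against FOXL2WT, CCN2 was at -0.073 (adjusted p = 0.39) and THBS1 was higher by 0.24 (adjusted p = 0.00054). SMAD7 and SKIL were not called in any of the 9 comparisons. SMAD7, the inhibitory SMAD, had condition means of 55.9 to 59.6 CPM, and SKIL, a SMAD co-repressor, 82.7 to 92.8 CPM. Against Vectors the estimate for SMAD7 in FOXL2WT was 0.095 (95% interval -0.035 to 0.23), at a SMAD3 level 11.1-fold that of Vectors.

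Of 30 mesenchymal markers 26 were tested, and in FOXL2WT against Vectors 1 was higher and 13 lower, where 2.46% of all genes were higher and 3.61% lower, with a median of -0.16 beside 0.0025 for all genes. In FOXL2C134W against Vectors 5 were higher and 7 lower, beside 7.48% and 7.24% of all genes. The forkhead genes FOXC1 (0.43) and FOXC2 (0.40) were higher, and the collagen COL3A1 (-0.44) and S100A4 (-1.03, at a mean of 0.880 against 1.81 CPM) were lower. Between FOXL2C134W and FOXL2WT 6 were higher and 1 lower, beside 7.13% and 4.12% of all genes. The largest positive differences were in the matrix genes COL6A2 (0.37), FN1 (0.30), TNC (0.27) and COL6A3 (0.26). Against Vectors these matrix genes were not called in FOXL2C134W, at 0.10, 0.016, -0.045 and -0.19 (edgeR adjusted p = 0.43, 0.89, 0.53 and 0.12).

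Of 25 epithelial markers, the genes that the Snail and ZEB factors would repress, 17 were tested. In FOXL2C134W against Vectors 4 were higher and 4 lower, beside 7.48% and 7.24% of all genes, among them the keratin KRT7 (0.41, 1291 to 1711 CPM) and the splicing regulator ESRP2 (0.34) upward and the tight junction gene CLDN4 (-0.76) and plakoglobin, JUP (-0.27), downward. Between FOXL2C134W and FOXL2WT, DSP (0.39), a desmosome protein, and TJP1 (0.26), a tight junction scaffold, were higher and CLDN1 (-0.38) was lower. Adding FOXO1-3A to FOXL2WT gave 0 calls among the epithelial markers by edgeR (2 at an unadjusted p under 0.05, 0 by DESeq2) and 0 among the mesenchymal markers (5 at an unadjusted p under 0.05, 0 by DESeq2). Of all genes, 0.0144% were higher and 0.0361% lower there. Adding FOXO1-3A to FOXL2C134W also gave 0 calls by edgeR in each list (1 epithelial and 7 mesenchymal markers at an unadjusted p under 0.05, 0 and 1 by DESeq2), beside 0.00721% of all genes higher and 0.707% lower. FOXL2C134W + FOXO1 against FOXL2WT + FOXO1 gave 0 as well (3 epithelial and 4 mesenchymal markers at an unadjusted p under 0.05, 0 and 2 by DESeq2), beside 0.0361% of all genes higher and 0.108% lower. At these shares, 0 calls say little about either list.

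**Figure D5:**
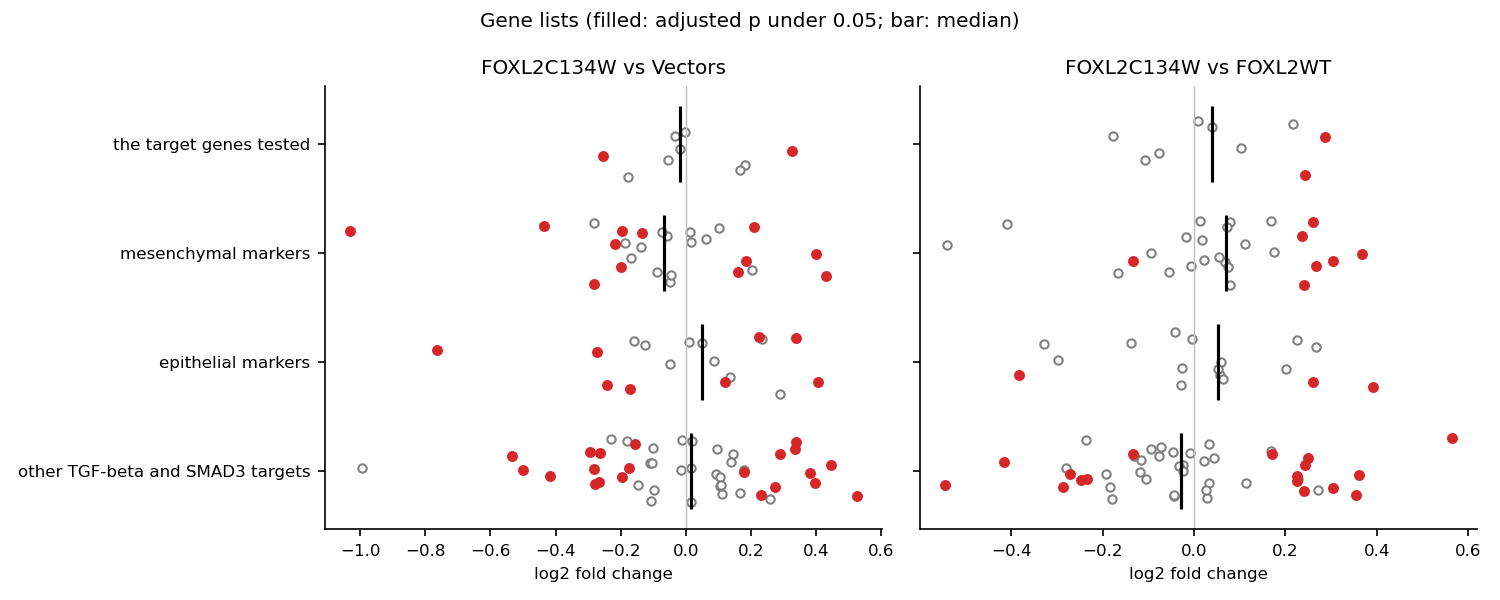
Log2 fold change of each tested gene of the 3 lists and of the 9 target genes, in FOXL2C134W against Vectors (left) and against FOXL2WT (right). Filled points passed an adjusted p of 0.05 and vertical bars are medians. In both comparisons the 46 other targets spread to both sides of 0, with 10 higher and 11 lower on the left and 10 higher and 7 lower on the right. Of all genes tested, 7.48% were higher and 7.24% lower on the left, and 7.13% and 4.12% on the right.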

How the data were processed

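RNA-seq libraries (TruSeq Stranded mRNA, single-end reads of 75 bp) were made from 15 samples of HGrC1, 3 for each of 5 conditions taken from the labels. The authors quantified reads with Salmon 1.1.0 on hg38 transcripts and imported them with tximport, and the release of the annotation is not given in the sources used here. They deposited estimated counts per gene symbol, already whole numbers, and per-library transcript tables with TPM and estimated counts. No row was a total or unassigned reads. In all, 98.4% of transcripts, holding 98.7% of the estimated reads, matched GENCODE 44 (GRCh38), which gave lengths and overlaps.

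Genes were filtered with filterByExpr (13868 kept), scaled by TMM and tested with edgeR 4.0.16 (R 4.3.3), glmQLFit and glmQLFTest, on all 15 libraries with 1 term per condition, in 8 pairwise comparisons and the interaction. Calls were made at a Benjamini-Hochberg adjusted p under 0.05 over all genes tested, and intervals are 95% t intervals of the fitted coefficient. The code was tested on simulated data. The alternatives were DESeq2 1.42.0 with and without transcript length offsets, its size factors, 2 other filters on low counts, only the conditions compared, length and GC offsets, a replicate block, and leaving out each library. Named genes were the 10 target genes, FOXL2, SMAD3 and FOXO1, from each list the 4 called genes with the largest change in FOXL2C134W against FOXL2WT and in FOXL2C134W against Vectors, and the 3 genes most like the target gene with the smallest adjusted p in FOXL2C134W against FOXL2WT. The target genes and the lists were chosen with earlier results of these data known. Motifs were searched on both strands. Counting error is only part of the spread, and floors and intervals on counts cover nothing else.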

Additional observations from a re-analysis of the deposited data

Results flagged for a closer look

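The change on adding FOXO1-3A differed between FOXL2C134W and FOXL2WT cells, by the interaction term of the edgeR fit, for 4 genes. They belong to the list of other TGF-beta and SMAD3 targets and are named here after their values were seen. The transfected genes passed the same test, FOXO1 at -1.41 (edgeR adjusted p = 4.7e-05), SMAD3 at 0.41 (0.0065) and FOXL2 at 0.60 (0.033). An effect of FOXO1-3A itself thus cannot be told apart from unequal levels of the transfected genes. COL5A1 had an interaction of -0.55 ± 0.094 (log2, SE, adjusted p = 0.0087), from 0.22 in FOXL2WT cells (adjusted p = 0.31) and -0.33 in FOXL2C134W cells (adjusted p = 0.025). The collagen gene COL1A1 had -0.34 ± 0.074 (adjusted p = 0.029), and LTBP2, a relative of LTBP4, had -0.32 ± 0.076 (adjusted p = 0.046). KLF10, an early TGF-beta response gene, had 0.31 ± 0.069 (adjusted p = 0.033), with -0.29 in FOXL2WT cells (adjusted p = 0.031) and 0.018 in FOXL2C134W cells (adjusted p = 0.95). None of the 9 target genes tested passed the interaction test (edgeR, 1 at an unadjusted p under 0.05 and 1 by DESeq2). With 3 libraries per condition no search for outlying libraries was made.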

How the results depend on the processing

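No estimate of the target genes with an adjusted p under 0.1 changed direction under any of the 24 alternatives, and BHLHE40 was called against Vectors in all of them for FOXL2C134W (highest adjusted p = 0.0059), FOXL2WT + FOXO1 (0.0048) and FOXL2C134W + FOXO1 (0.0026). TGFBI, CDH2, SNAI1, SNAI2 and ZEB2 were not called in any comparison under any alternative (smallest adjusted p = 0.050, ZEB2). The order of mean levels per length over all libraries was the same with CPM over effective length. That measure rests on the same lengths as TPM and is no independent check. The number of target genes called in FOXL2WT against Vectors went from 0 to 1, BHLHE40, with DESeq2, DESeq2 size factors, at least 10 counts in every sample, only the conditions compared, and the length and GC offsets, and ran from 0 to 1 when libraries were left out. With DESeq2 and transcript length offsets it went from 2 to 1 in FOXL2C134W against Vectors and from 2 to 0 in FOXL2C134W against FOXL2WT. With single libraries left out it ran from 2 to 3 in the first of these and from 0, without FOXL2WT B, to 3 in the second. LTBP4 brought the count from 0 to 1 in FOXL2C134W + FOXO1 against FOXL2C134W with DESeq2, no filter, and at least 10 counts in every sample, and in the interaction with DESeq2 and no filter, and both ran from 0 to 1 with single libraries left out. In FOXL2C134W against Vectors, DESeq2 with transcript length offsets called 13 other targets in place of 21 and 4 epithelial markers in place of 8. Leaving out libraries gave 3 (without Vectors C) to 8 epithelial markers there, and 1 (without FOXL2WT B, FOXL2C134W B or FOXL2C134W C) to 4 in place of 3 in FOXL2C134W against FOXL2WT. The cause was not tested.

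PMEPA1 in FOXL2C134W against FOXL2WT, not called at an adjusted p of 0.051, was called in 5 of the 9 alternatives that keep all libraries and in 6 of the 15 that leave one out, with adjusted p from 0.019 to 0.36. The same-letter libraries of different conditions did not deviate together (correlations of -0.16 to 0.17, median 0.0036), so the letters were not taken as pairs. The replicate block gave the same number of target genes called, 2 in FOXL2C134W against FOXL2WT and 2 against Vectors. Over all genes, DESeq2 with transcript length offsets called 707 in place of 1560 in FOXL2C134W against FOXL2WT, 934 in place of 2041 in FOXL2C134W against Vectors, 719 in place of 1294 in FOXL2C134W + FOXO1 and 456 in place of 842 in FOXL2WT against Vectors. The first of these had 772 to 866 without FOXL2WT B or FOXL2C134W B or C, and the second 1275 to 1348 without FOXL2C134W B or Vectors B or C. Against Vectors, FOXL2C134W + FOXO1 had 764 and 842 without Vectors A and B. FOXL2WT had 305 and 561 without Vectors A and C, 418 and 345 without FOXL2WT A and B, 1345 without a filter and 1690 with only the conditions compared. FOXL2WT + FOXO1 had 524, but 215 to 341 without Vectors A, B or C, 305 without FOXL2WT + FOXO1 C and 954 without a filter. The small counts for FOXO1-3A moved most. For FOXL2C134W + FOXO1 against FOXL2C134W, 99 became 32 to 463 with all libraries, 5 without FOXL2C134W B or C or FOXL2C134W + FOXO1 C, 11 and 231 without FOXL2C134W + FOXO1 A and B, and 355 without FOXL2C134W A. For FOXL2C134W + FOXO1 against FOXL2WT + FOXO1, 20 became 9 to 446, 7 and 11 without FOXL2C134W + FOXO1 A and C, 12 to 13 without FOXL2WT A or FOXL2WT + FOXO1 A or B, and 38 without FOXL2C134W A. For FOXL2WT + FOXO1 against FOXL2WT, 7 became 7 to 260, and 2 to 4 without FOXL2WT + FOXO1 A or B, FOXL2WT B, Vectors C or FOXL2C134W B. For the interaction, 192 became 113 to 551, 45 to 56 without FOXL2C134W + FOXO1 A, FOXL2WT + FOXO1 B or FOXL2WT B, 78 to 121 without FOXL2C134W B or C or FOXL2C134W + FOXO1 C, and 303 and 423 without FOXL2C134W + FOXO1 B and FOXL2C134W A. Depth limited SNAI1, at 162 to 315 counts, and TWIST1, at 0 to 5.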
